A study of Mus musculus with 74 samples.

Results

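The genes described here are 31 genes of cholesterol and fatty acid synthesis. They were chosen by gene symbol, and all 31 were found among the 23297 features with a symbol in both deposited expression tables. They comprise 8 genes of the mevalonate steps, 11 of the later sterol steps, 5 that control the pathway, 1 sterol carrier (Stard4) and 6 of fatty acid synthesis and desaturation. Each was followed in CD11b-selected cells from a mouse model of amyotrophic lateral sclerosis, and set beside Mbp, the RNA for myelin basic protein, in the same libraries.

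All mice were female. G93A mice carry the mutant human transgene hSOD1-G93A on C57BL/6J, WT mice carry the wild-type human SOD1 transgene, and B6 mice are non-transgenic C57BL/6J. WT mice therefore share a human SOD1 transgene with G93A mice, and B6 mice do not. Microglia of the spinal cord (MG) and macrophages of the sciatic nerve (MP) were taken with anti-CD11b magnetic beads after a density gradient meant to remove myelin, with 1 mouse for each library except for the pre-symptomatic MP libraries, each pooled from 2 mice. Non-grafted G93A mice were studied at 4 stages, with mean ages of 50.8 days (pre-symptomatic), 105 days (onset), 152.6 days (early symptomatic, 10% weight loss) and 169.4 days (end stage). The MG groups hold 4, 5, 4 and 4 libraries at these stages, and 4 libraries each for WT mice of 107.3 and 165.4 days and for B6 mice of 109.8 and 165.6 days. The MP groups hold 3, 3, 4 and 4 G93A libraries, plus 4 libraries whose description names them WT while their title, source and strain say G93A. These 4 are called described-as-WT below. In the grafted series, G93A hosts received bone marrow from G93A or WT donors at onset, and 12 MG and 11 MP libraries were made at the early symptomatic and end stages. Whether the 2 bone marrow groups differ in the share of donor-derived cells in these libraries was not analysed here.

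Cholesterol is built from acetyl-CoA in a chain that runs through mevalonate and isoprenoid units to squalene, lanosterol and finally cholesterol. Most enzymes of the chain, and several that make and desaturate fatty acids, are switched on together by the transcription factors SREBP-2 and SREBP-1 (genes Srebf2 and Srebf1), which the escort protein SCAP carries out of the endoplasmic reticulum when sterols are low and which INSIG proteins hold back when sterols are high. In the spinal cord, oligodendrocytes are heavy users of this pathway because myelin is rich in cholesterol and long-chain fatty acids, astrocytes also make cholesterol, and microglia take up lipid from myelin debris.

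The values are FPKM, that is fragments per kilobase of transcript, scaled to the mapped fragments of each library, which compare genes per unit of length. The sum of FPKM over all features was 484604 to 618562 in MG and 625386 to 986659 in MP libraries of the non-grafted table. The number of reads behind them is not known, so no counting interval is given. The 8 microglia markers examined were all present in MG libraries, with summed levels between 585 FPKM in a B6 library of onset age and 16287 FPKM in a G93A onset library. Oligodendrocyte and myelin RNA was present as well, and none of its 10 markers was at 0 in any MG group: their sum was 27868 to 32437 FPKM in pre-symptomatic, 822 to 31919 in onset, 1824 to 13409 in early symptomatic and 1840 to 11260 in end-stage G93A libraries. The sum was 25475 to 32276 and 14270 to 24545 FPKM in B6 libraries of the younger and older age, and 20644 to 28937 and 6699 to 23435 FPKM in WT libraries. Astrocyte markers (9 genes) summed to 6973 to 9006 FPKM in pre-symptomatic and 635 to 5665 FPKM in end-stage libraries, and neuron markers (6 genes) to 357 to 494 and 14.6 to 127.5 FPKM, and the part of astrocyte and neuron RNA in the changes below was not tested. Neutrophil RNA was highest in 4 non-grafted MG libraries (S100a8 above 10000 FPKM, called neutrophil-rich below). These were G93A onset replicate 5, G93A end stage replicate 4 and WT of end-stage age replicates 1 and 2. The other non-grafted MG libraries held neutrophil markers too, with sums of up to 4960 FPKM (B6 of end-stage age replicate 4). In bulk samples such as these, fewer cells of a type and less RNA per cell cannot be told apart.

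Promoter sequences were available for 24 of the 31 genes. From pre-symptomatic to end stage, Hmgcs1, Idi1 and Cyp51 fell together in the G93A microglia while Ebp, a gene of the same pathway, went up. The promoters of these genes are shown for that reason. Each is the 250 bases before the gene's start in RefSeq's annotation of GRCm38.p6, written 5′ to 3′ on the gene's strand. They lie at chr13:119690101-119690350 (plus strand, Hmgcs1), chr13:8885356-8885605 (plus strand, Idi1), chr5:4104698-4104947 (minus strand, Cyp51) and chrX:8193513-8193762 (minus strand, Ebp). Capitals mark CCAAT, its complement ATTGG, and any match to TCACNCCAC, a sterol regulatory element core that SREBPs bind; the motifs were searched on both strands and do not overlap in these windows.
Hmgcs1: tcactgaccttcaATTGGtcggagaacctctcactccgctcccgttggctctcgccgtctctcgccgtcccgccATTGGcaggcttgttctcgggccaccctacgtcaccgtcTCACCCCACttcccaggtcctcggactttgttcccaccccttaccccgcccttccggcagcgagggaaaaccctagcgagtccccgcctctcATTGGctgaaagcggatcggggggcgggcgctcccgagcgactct
Idi1: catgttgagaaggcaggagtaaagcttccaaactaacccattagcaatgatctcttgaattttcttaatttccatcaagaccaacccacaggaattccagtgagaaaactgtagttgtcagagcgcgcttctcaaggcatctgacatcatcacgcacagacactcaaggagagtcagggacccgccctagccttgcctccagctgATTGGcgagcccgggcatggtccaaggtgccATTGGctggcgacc
Cyp51: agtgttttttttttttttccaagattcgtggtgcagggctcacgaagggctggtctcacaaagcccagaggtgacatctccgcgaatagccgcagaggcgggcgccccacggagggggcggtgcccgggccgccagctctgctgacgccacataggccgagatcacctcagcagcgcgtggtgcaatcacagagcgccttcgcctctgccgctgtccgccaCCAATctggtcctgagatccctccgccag
Ebp: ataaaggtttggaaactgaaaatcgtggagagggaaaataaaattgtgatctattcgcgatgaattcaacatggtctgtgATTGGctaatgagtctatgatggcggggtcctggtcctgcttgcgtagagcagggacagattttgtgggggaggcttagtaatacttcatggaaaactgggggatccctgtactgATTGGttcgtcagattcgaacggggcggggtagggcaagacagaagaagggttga
CCAAT, the motif of the factor NF-Y that often works beside SREBPs, was present in 20 of the 24 windows, Ebp's included, and in 37.5% of 27025 genes with a window of the same length. It was absent from those of Acat2, Acly, Fads2 and Scap. TCACNCCAC was found in 1 of the 24 windows, that of Hmgcs1, and in 1.22% of all genes. A match is a description of letters, and its absence says only that these letters are not in this window.

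Taken as a mean of log2(FPKM + 1) over the 31 genes, the pathway stood highest in microglia of pre-symptomatic G93A mice and of B6 and young WT mice, and of the non-grafted MG groups it was lowest at G93A end stage. The 4 pre-symptomatic libraries had means of 5.04, 5.11, 5.00 and 4.94. The 5 onset libraries were split, at 4.97, 3.78, 3.72, 5.20 and 3.82: replicates 1 and 4 stood at the pre-symptomatic level and replicates 2, 3 and 5 more than 1 log2 unit below it. Early symptomatic libraries had means of 3.86, 3.80, 4.18 and 4.05, and end-stage libraries 3.03, 3.47, 3.41 and 3.88. Every early symptomatic and end-stage library was below every pre-symptomatic library. B6 microglia stayed high at the older age, at 4.95, 5.21, 4.97 and 4.62, while WT microglia of end-stage age had means of 3.95, 4.21, 5.04 and 4.34, with replicate 3 alone at the level of the young libraries. As group values these are 5.02 ± 0.07 (SD, n = 4) pre-symptomatic, 4.30 ± 0.73 (n = 5) at onset, 3.97 ± 0.17 (n = 4) early symptomatic and 3.45 ± 0.35 (n = 4) at end stage, against 4.38 ± 0.47 (n = 4) in WT and 4.94 ± 0.24 (n = 4) in B6 mice of end-stage age. The mean was lower in sciatic nerve macrophages, from 3.40 ± 0.55 (n = 3) pre-symptomatic to 2.96 ± 0.27 (n = 4) at end stage, and those groups overlapped.

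**Figure D1:**
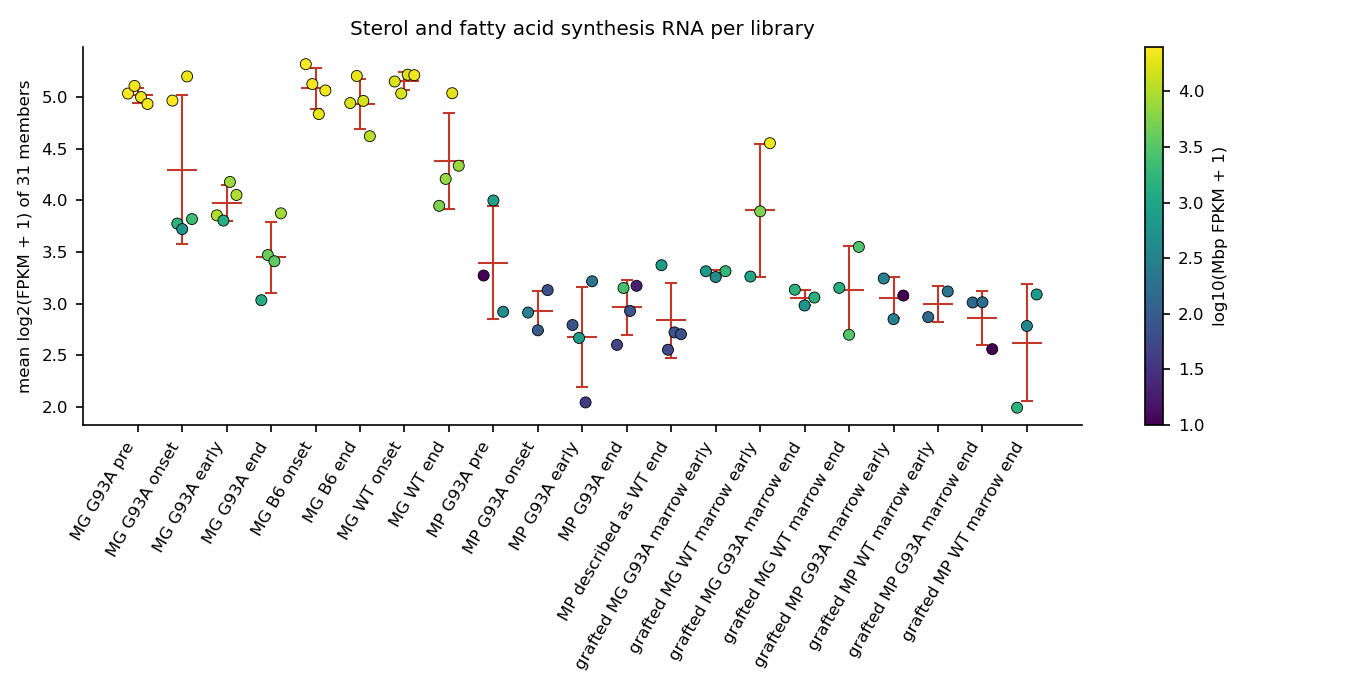
Each point is 1 library and gives the mean log2(FPKM + 1) over the 31 genes (vertical axis) in each of the 21 groups (horizontal axis), coloured by log10 of Mbp FPKM + 1, with the group mean ± SD in red. Pre-symptomatic G93A microglia lie between 4.94 and 5.11, end-stage ones between 3.03 and 3.88, and the onset libraries fall at both levels in step with their colour.

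The first comparison follows microglia through the disease, asking how each stage stands against the pre-symptomatic one. All 3 stage comparisons use the same 4 pre-symptomatic libraries as their reference, so they are not independent. Age rose with stage and no control group was of the pre-symptomatic age. Stage and age therefore cannot be told apart in these comparisons, nor in those of the MP stages below. By end stage 26 of the 30 genes tested had fallen and 1 had risen, where over all 11750 genes tested with limma (adjusted p under 0.05) 31.1% were lower and 24.8% higher. Stard4 was below the mean of 1 FPKM required for the test, with levels of 0.90, 1.37, 1.30 and 0.92 FPKM in pre-symptomatic and 0.47, 0.42, 0.48 and 0.64 FPKM in end-stage libraries, and is not among the 30. The median change over the 30 genes was -1.38 on the log2(FPKM + 1) scale, against 0.03 over all genes tested. The levels of 25 of the 30 genes did not overlap between the 2 stages, and 52.9% of all genes tested did not. The 2 groups' Mbp levels did not overlap either, at 21094 to 24164 FPKM pre-symptomatic and 1317 to 8319 FPKM at end stage.

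In the mevalonate steps, all 8 genes fell at end stage, with a median change of -1.53. Hmgcs1, the synthase that makes HMG-CoA, stood at 206, 199, 215 and 157 FPKM in the pre-symptomatic libraries. It stood at 204, 28.5, 24.6, 246 and 32.02 FPKM at onset, 48.2, 23.9, 61.0 and 65.4 FPKM early symptomatic and 14.97, 24.03, 20.4 and 39.2 FPKM at end stage. The end-stage libraries were all below the pre-symptomatic ones, and at onset replicates 1 and 4 were high and the others low. The end-stage change from the pre-symptomatic level was -3.002 ± 0.55 (log2 ± SE, limma adjusted p = 0.000213). Idi1, which isomerises the isoprenoid unit, had 37.3, 45.7, 39.1 and 30.96 FPKM pre-symptomatic and 2.10, 3.28, 3.35 and 7.51 FPKM at end stage, again without overlap, for a change of -3.05 ± 0.47 (limma adjusted p = 4.45e-05). Fdps, which joins isoprenoid units into farnesyl diphosphate, moved less: it had 25.96, 32.3, 27.2 and 26.8 FPKM pre-symptomatic and 10.4, 12.47, 12.2 and 25 FPKM at end stage. Replicate 4 was the highest of the end-stage libraries and just under the lowest pre-symptomatic one, and the change was -0.94. Between these extremes were Mvd and Mvk, the decarboxylase and kinase of mevalonate, at -1.72 and -1.37, the thiolase gene Acat2 at -1.68 and the kinase gene Pmvk at -0.998. The smallest fall was that of Ggps1, which makes geranylgeranyl diphosphate, at -0.43, and its groups overlapped.

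In the sterol steps, 9 of 11 genes fell at end stage, 1 rose and 1 did not pass the test, with a median of -1.37. Sqle, the epoxidase that commits squalene to the sterol branch, had 24.6, 29.4, 26.7 and 28.6 FPKM pre-symptomatic. At onset it had 26.6, 8.20, 12.8, 38.7 and 7.98 FPKM, early symptomatic 5.48, 11.0, 10.0 and 5.68 FPKM and at end stage 1.97, 3.72, 3.05 and 5.60 FPKM. Both symptomatic stages lay wholly below the pre-symptomatic libraries, and the end-stage change was -2.68. Cyp51, the lanosterol demethylase, had 106, 115.99 and 87.7 FPKM in pre-symptomatic replicates 1, 3 and 4 and more in replicate 2, for a group mean of 108 ± 15.3 FPKM (SD, n = 4), and 13.4, 14.8, 14.7 and 19.01 FPKM at end stage, without overlap, a change of -2.73. Fdft1, the squalene synthase, went from 45.8, 47.5, 39.5 and 42.6 FPKM to 4.92, 8.53, 7.15 and 16.8 FPKM, also without overlap, a change of -2.23. Msmo1, which oxidises the methyl groups left on the sterol ring, is among the most abundant sterol genes and changed less: 72.3, 81.4, 78.0 and 81.7 FPKM pre-symptomatic and 31.3, 37.5, 38.6 and 42.0 FPKM at end stage, -1.05. All end-stage libraries were below all pre-symptomatic ones. Lss, the lanosterol synthase, fell by 1.92 on the log2 scale, and Tm7sf2, Sc5d, Nsdhl and Hsd17b7, which reduce, desaturate and demethylate the sterol, fell by 0.84 to 1.39, with overlapping groups for Hsd17b7. Dhcr7, the final reductase of one branch, did not pass the test, at 13.8, 14.7, 13.3 and 15.1 FPKM pre-symptomatic and 23.3, 19.6, 22.2 and 9.65 FPKM at end stage.

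Ebp, the sterol isomerase, was the gene called higher at end stage than pre-symptomatic. It had 9.61, 7.30, 10.53 and 15.9 FPKM pre-symptomatic, 8, 23.7, 29.5, 12.2 and 26.8 FPKM at onset, 16.4, 26.8, 19.4 and 15.8 FPKM early symptomatic and 25.01, 18.4, 25.2 and 17.7 FPKM at end stage. The onset libraries split as for Hmgcs1 but in the opposite sense, with replicates 1 and 4 low, and every end-stage library was above every pre-symptomatic one. The end-stage change was 0.96 ± 0.30 (limma adjusted p = 0.00951).

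Among the genes of control, 4 of 5 fell at end stage. Insig1, which retains the SREBP complex and is itself a target of SREBPs, fell most: 18.6, 21.0, 19.6 and 13.2 FPKM pre-symptomatic and 2.20, 2.92, 3.50 and 3.46 FPKM at end stage, -2.24. Srebf2 had 28.1, 27.8, 22.9 and 22.4 FPKM pre-symptomatic and 10.1, 9.36, 9.69 and 19.3 FPKM at end stage, -1.06, and Srebf1 had 27.9, 25.1, 31.9 and 39.4 and 13.7, 20.4, 15.7 and 21.8 FPKM, -0.77. Neither gene's end-stage libraries reached its pre-symptomatic range. Scap fell by 0.37, and Insig2, the second retention gene, did not pass the test, at -0.19.

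The fatty acid genes held the largest changes, with 5 of 6 lower at end stage and a median of -3.19. Scd2, the stearoyl-CoA desaturase prominent in brain, was the most abundant of the 31 genes, at 627, 659, 619 and 391.61 FPKM pre-symptomatic. It had 569, 61.2, 30.8, 687 and 37.5 FPKM at onset, 110.86, 48.7, 177 and 199 FPKM early symptomatic and 29.1, 66.6, 52.3 and 118.88 FPKM at end stage. Neither symptomatic group overlapped the pre-symptomatic one, and the end-stage change was -3.23 ± 0.70 (limma adjusted p = 0.000805). Its neighbour Scd1 (chromosome 19, 44394450 to 44407709, minus strand, beside Scd2 at 44293673 to 44306864, plus strand, in the coordinates of the deposited table) fell from 131.53, 152, 94.3 and 74.7 FPKM to 1.15, 6.10, 3.89 and 19.3 FPKM, -4.14 ± 0.82 (limma adjusted p = 0.000421). Scd1 and Scd2 are close copies of each other, and no source used here says how reads that match both were assigned. The desaturases of polyunsaturated fatty acids also lie side by side on chromosome 19. Fads1 (10182888 to 10196874) fell from 271, 287, 237 and 189 to 14.9, 27.3, 26.4 and 45.95 FPKM, -3.14 ± 0.58 (limma adjusted p = 0.000231). Fads2 (10062778 to 10101616) fell from 263, 255, 214 and 181 to 3.93, 17.3, 14.9 and 55.4 FPKM, -3.75 ± 0.87 (limma adjusted p = 0.00138). In all 3 of these genes no end-stage library reached the pre-symptomatic range, and replicate 4 was the highest at end stage in each. Fasn, the fatty acid synthase, fell by 2.35. Acly, which supplies acetyl-CoA from citrate, did not: it had 53.04, 51.8, 49.9 and 53.3 FPKM pre-symptomatic and 54.5, 47.0, 52.2 and 45.1 FPKM at end stage, -0.07.

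**Figure D2:**
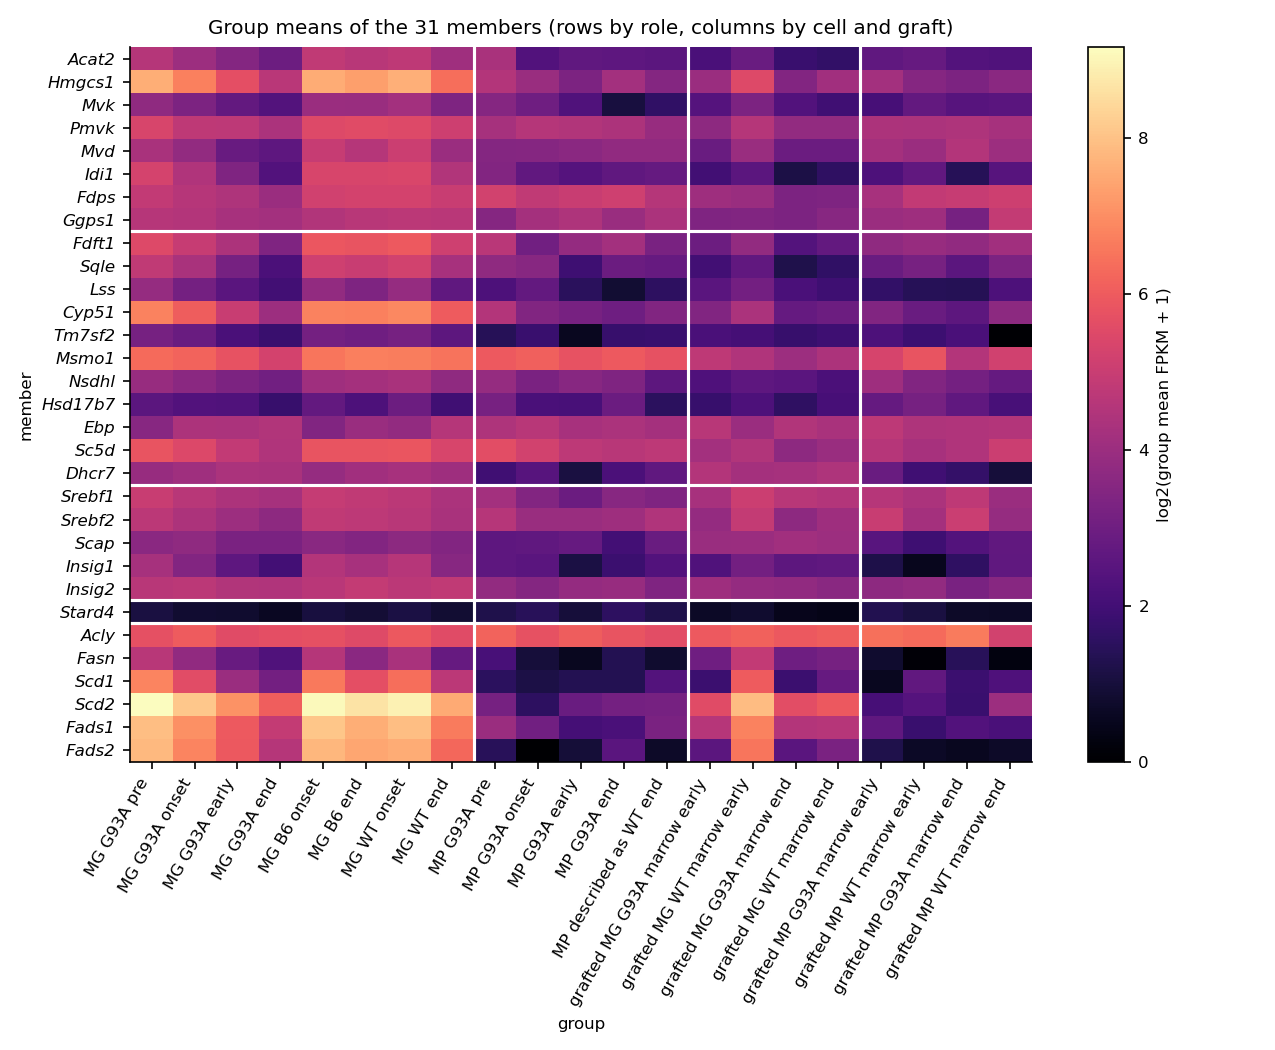
Colours give log2(group mean FPKM + 1) for each of the 31 genes (rows, by role) in the 21 groups (columns). Hmgcs1, Scd2, Fads1 and Fads2 stand higher in pre-symptomatic, B6 and young WT microglia than at the symptomatic stages, while Ebp stands lower there.

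At the early symptomatic stage 21 of 30 genes were lower (16% of all genes tested) and 1, Ebp, was higher (19.2% of all genes tested), with a median of -1.01 against 0.05 over all genes. The lower genes were 5 of 8 in the mevalonate steps, 8 of 11 in the sterol steps, 3 of 5 of control and 5 of 6 of the fatty acid steps. Scd1 was at -3.05 ± 0.82 (limma adjusted p = 0.00859), Scd2 at -2.25 ± 0.70 (limma adjusted p = 0.0178) and Hmgcs1 at -2.03 ± 0.55 (limma adjusted p = 0.00866). At this stage the groups of 24 of the 30 genes did not overlap (44.3% of all genes tested). Of these counts, that of the 22 genes called fell to 13 without early symptomatic replicate 2, whose Mbp level of 1315 FPKM was the lowest of its group.

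At onset 11 of 30 genes were lower and none higher (15% and 10.3% of all genes tested), with a median of -0.62 against 0.14. Fads2, at -2.58 ± 0.83 (limma adjusted p = 0.0393), and Scd1, at -2.56 ± 0.78 (limma adjusted p = 0.0391), had the largest changes, and the fatty acid genes gave 5 of the 11 calls. The pre-symptomatic and onset ranges overlapped in all 30 genes, while 2.42% of all genes tested did not overlap. Mbp was 23950, 1575, 568.32, 18996 and 2194 FPKM in onset replicates 1 to 5, in the same split. The call count was 0 on leaving out onset replicate 2, 3 or 5, or pre-symptomatic replicate 1, 2 or 3. It was 18 on leaving out onset replicate 1 and 19 on leaving out replicate 4. Onset replicate 5 is also the neutrophil-rich onset library.

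**Figure D3:**
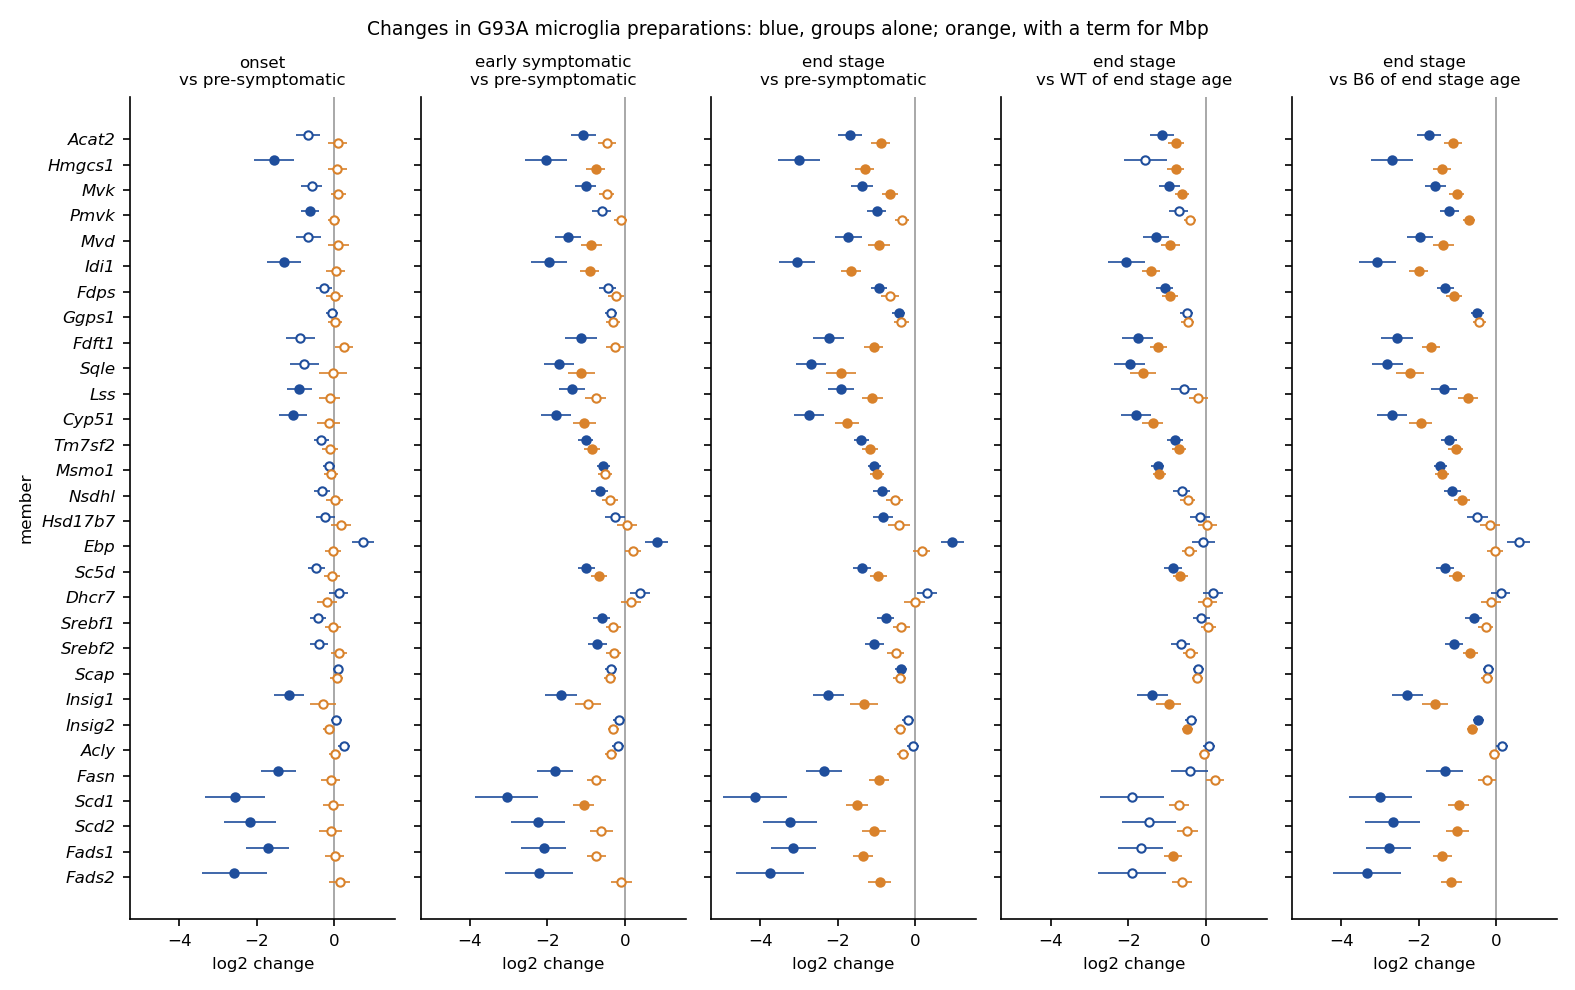
Log2 change ± SE of each of the 30 genes tested in microglia (rows) for 5 comparisons (panels), from limma on log2(FPKM + 1), with groups alone in blue and with a term for Mbp in orange; filled points have an adjusted p under 0.05. Nearly all points lie left of 0 in the end-stage panels. Ebp in blue lies to the right in the stage panels, and the onset points in orange lie around 0.

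The transgenic and non-transgenic controls ask whether the end-stage levels differ from mice of the same age without the mutation. Against WT mice of end-stage age, 12 of 30 genes were lower and none higher in G93A microglia, where 4.19% of all genes tested were lower and 2.81% higher. The median was -0.89 against -0.13 over all genes, and the groups of 13 genes did not overlap (16.6% of all genes tested). The 12 were 5 mevalonate genes, 6 sterol genes and Insig1, and no fatty acid gene was among them. Sqle had 8.32, 12.8, 33.8 and 18.2 FPKM in the WT libraries, all above the G93A end-stage libraries, a difference of -1.96 ± 0.39 (limma adjusted p = 0.00308). Cyp51 had 30.6, 50.8, 115.7 and 54.5 FPKM, also without overlap, at -1.80 ± 0.39 (limma adjusted p = 0.00528). Idi1 had 12.5, 12.1, 46.5 and 15.9 FPKM, at -2.04 ± 0.47 (limma adjusted p = 0.008). Its WT libraries also all exceeded the G93A ones. Fdft1 was at -1.75 ± 0.40 (limma adjusted p = 0.00836), Insig1 at -1.38 ± 0.41 (limma adjusted p = 0.0384) and Mvd at -1.28 ± 0.34 (limma adjusted p = 0.0207).

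Msmo1 had the smallest p of the group, with 82.2, 75.0, 112.24 and 89.6 FPKM in WT against 31.3, 37.5, 38.6 and 42.0 FPKM in G93A libraries, no overlap, and a difference of -1.23 ± 0.17 (limma adjusted p = 6.21e-05). None of the 6 fatty acid genes passed the test, and they ranged from -1.91 for Fads2 to 0.08 for Acly, with Fasn at -0.41 and Scd2 at -1.47. Fads2 had 28.8, 49.1, 154 and 68.2 FPKM in WT libraries, with replicates 1 and 2 inside the G93A range, at -1.91 ± 0.87 (limma adjusted p = 0.176). Scd1 was at -1.90 (limma adjusted p = 0.152) and Fads1 at -1.67 (limma adjusted p = 0.0751). WT replicate 3 was the highest WT library for Msmo1, Fasn, Scd1, Scd2, Fads1 and Fads2, but not for Acly. It had an Mbp level of 18315 FPKM against 5295, 7044 and 7443 FPKM in the others. Without it the count of genes called was 4, and it was 6, 7 and 7 without G93A end-stage replicate 1, 2 or 3. Leaving out the 4 neutrophil-rich libraries gave 19 lower genes.

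Against B6 mice of end-stage age, 25 of 30 genes were lower in G93A microglia and none higher, where 28% of all genes tested were lower and 18.3% higher. The median was -1.34 against 0.00 over all genes, and 24 genes did not overlap (44.1% of all genes tested). All 8 mevalonate genes, 8 of 11 sterol genes, 4 of 5 control genes and 5 of 6 fatty acid genes were among the 25. Fads2 had 169, 244, 172 and 114.3 FPKM in B6 libraries, each above every G93A end-stage library, at -3.33 ± 0.87 (limma adjusted p = 0.00435). Hmgcs1 had 169, 211, 160.1 and 102 FPKM, again without overlap, at -2.69 ± 0.55 (limma adjusted p = 0.000757). Ebp, with 12.4, 10.7, 12.0 and 23.0 FPKM in B6 libraries, was at 0.58 and did not pass the test, and neither did Acly, Dhcr7, Hsd17b7 and Scap.

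WT and B6 microglia were also compared with each other. Neither age gave a call by limma, of the 30 genes or of any gene (0% of all genes tested), with 0 genes of the 30 at an unadjusted p under 0.05 at onset age and 14 at end-stage age. Over all 11750 genes tested, 727 and 2421 were at an unadjusted p under 0.05 at these ages. At end-stage age the median was -0.55 in WT relative to B6, against 0.07 over all genes. At onset age the median was 0.07 against 0.09 over all genes, and became -0.07 against -0.04 when libraries were rescaled by the median ratio.

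At onset age, 6 of 30 genes were lower in G93A than in WT microglia (3.27% of all genes tested) and none higher (1.04%). These were Insig1 at -1.52 ± 0.39 (limma adjusted p = 0.0482), Mvd at -1.45 ± 0.32 (limma adjusted p = 0.0453), Fdft1 at -1.36, Mvk at -1.03, Pmvk at -0.79 and Nsdhl, a sterol dehydrogenase, at -0.71. The calls were 0 on leaving out onset replicate 2, 3 or 5 or any 1 of the 4 WT libraries, and 22 and 21 on leaving out onset replicates 1 and 4 in turn. The groups of 4 genes did not overlap (2.99% of all genes tested). Against B6 mice of onset age 18 genes were lower (25.7% of all genes tested) and Ebp was higher (29.4%), at 0.83. The median was -0.78 against 0.15 over all genes, and -0.92 against 0.02 under median-ratio scaling. The count of 19 was 6, 3 and 9 on leaving out onset replicates 2, 3 and 5 in turn.

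In the non-grafted microglia, libraries with more Mbp had a higher mean level over the 31 genes. Over the 33 MG libraries, the mean log2 level and log2 Mbp had a Pearson r of 0.863 and a Spearman rho of 0.829, and r was 0.906 without the 2 libraries farthest from the median of Mbp. After group means were taken off, r was 0.863. Within the 16 control libraries (WT and B6) r was 0.950 and rho 0.809, and r was 0.874 without the 2 farthest. Within the 17 G93A libraries r was 0.823 and rho 0.838, and r was 0.891 without the 2 farthest. In the 12 grafted MG libraries r was 0.730 and rho 0.441, but r was -0.108 without the 2 farthest, so the relation there rests on those libraries. In the 11 grafted MP libraries r was -0.221 and rho -0.118, and r was -0.670 without the 2 farthest. The libraries of 1 group share their handling, every FPKM in a library shares its scaling, and these values are descriptions with no test.

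**Figure D4:**
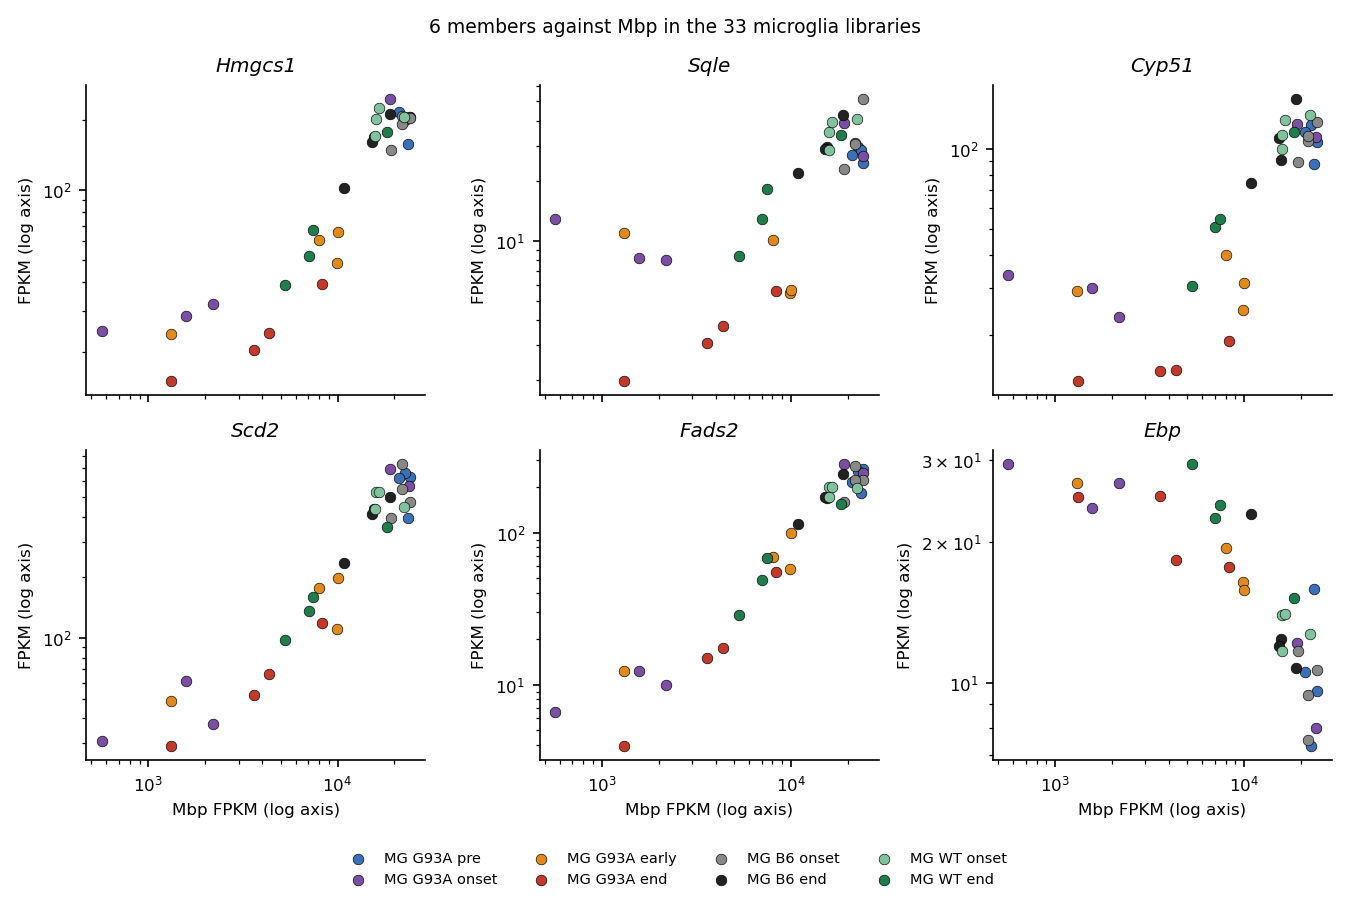
FPKM of Hmgcs1, Sqle, Cyp51, Scd2, Fads2 and Ebp (vertical axes, log scale) against Mbp FPKM (horizontal axes, log scale) in the 33 microglia libraries, coloured by group. Fads2 and Scd2 are higher where Mbp is higher, and Ebp is lower there. For Sqle and Cyp51 the end-stage libraries lie below all control libraries. Only end-stage replicate 4 reaches the Mbp range of the controls, and the other end-stage libraries have no control library of like Mbp.

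A slope on log2 Mbp within groups was positive for 22 and negative for 3 of the 30 genes, where 34.1% of all genes tested with limma had a positive and 41.3% a negative slope. The slope was steepest for the desaturases. For 1 unit of log2 Mbp, Fads2 changed by 1.07 ± 0.06 log2 units (limma adjusted p = 4.13e-15), Scd1 by 0.99 ± 0.06 (limma adjusted p = 1.85e-14) and Scd2 by 0.82 ± 0.06 (limma adjusted p = 6.84e-12). Fads1 changed by 0.68 ± 0.05 (limma adjusted p = 1e-11), Hmgcs1 by 0.64 ± 0.05 (limma adjusted p = 1.58e-11) and Fasn by 0.53 ± 0.05 (limma adjusted p = 7.28e-10). Ebp had a negative slope of -0.30 ± 0.04 (limma adjusted p = 1.37e-06), and those of Acly and Insig2 were -0.09 and -0.08. Msmo1, Tm7sf2, Ggps1, Scap and Dhcr7 had no slope that passed the test, and that of Msmo1 was 0.03.

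In the 16 WT and B6 libraries alone, where no mutant SOD1 is present, 23 of the 30 genes had a positive slope (26.3% of all genes tested) and Ebp had a negative one (29.8%). Fads2 was at 1.18 ± 0.14, Hmgcs1 at 1.15 ± 0.11, Idi1 at 1.05 ± 0.11, Sqle at 1.04 ± 0.15, Scd1 at 1.03 ± 0.15 and Cyp51 at 1.00 ± 0.11 log2 units per unit of log2 Mbp. Msmo1, flat over all libraries, had a slope of 0.37 here. Without WT replicate 3 of end-stage age, 20 genes had a positive slope.

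**Figure D5:**
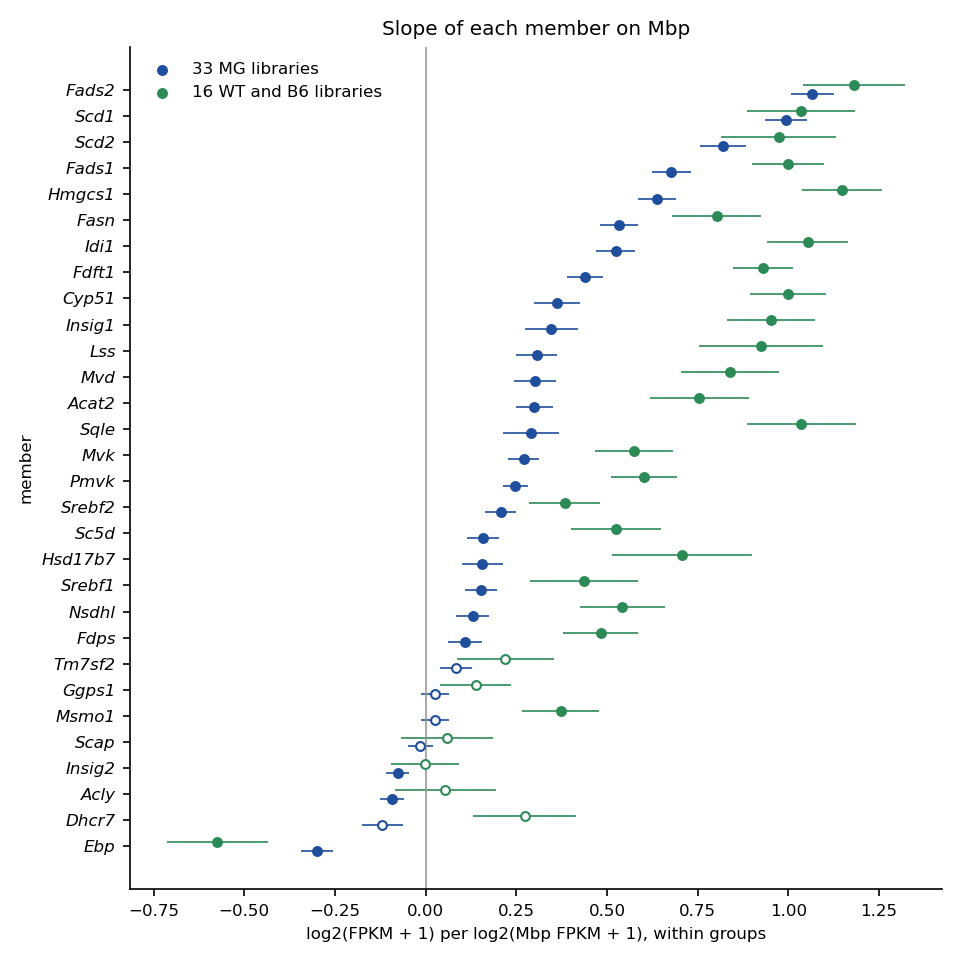
Slope ± SE of each of the 30 genes on log2 Mbp within groups (log2 units per log2 unit), over 33 microglia libraries in blue and 16 WT and B6 libraries in green; filled points have a limma adjusted p under 0.05. Fads2 and Scd1 are near 1 in both, Idi1, Sqle and Cyp51 near 1 in the controls alone, and Ebp is below 0 in both.

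Libraries of like Mbp from different groups can be set side by side. G93A end-stage replicate 4 had 8319 FPKM of Mbp, and WT replicates 2 and 4 of end-stage age had 7044 and 7443 FPKM. Sqle was 5.60 FPKM in the first and 12.8 and 18.2 FPKM in the other 2, Cyp51 was 19.01 against 50.8 and 54.5 FPKM, and Msmo1 was 42.0 against 75.0 and 89.6 FPKM. Not all members were lower in the G93A library. Srebf2 was 19.3 against 19.8 and 19.2 FPKM, Acat2 11.68 against 11.61 and 13.6 FPKM and Fasn 5.60 against 5.65 and 4.63 FPKM. Srebf1 was 21.8 against 18.6 and 22.2 FPKM, and Hsd17b7 was higher, at 3.96 against 2.14 and 1.70 FPKM. Of the desaturases in the same libraries, Fads1 and Scd2 were lower in the G93A library and Scd1 and Fads2 lay between the WT values, with Fads1 at 45.95 against 73.9 and 84.7 FPKM, Scd2 at 118.88 against 135.45 and 159 FPKM, Scd1 at 19.3 against 18.7 and 20.4 FPKM and Fads2 at 55.4 against 49.1 and 68.2 FPKM. Likewise early symptomatic replicates 1 and 4, with 9889.6 and 10029 FPKM of Mbp, had 5.48 and 5.68 FPKM of Sqle, where B6 replicate 4 of end-stage age, with 10881 FPKM of Mbp, had 21.7 FPKM. The desaturases were also lower in these 2 G93A libraries, with Fads1 at 54.5 and 84.2 against 125.75 FPKM, Scd1 at 12.99 and 24.3 against 29.5 FPKM, Scd2 at 110.86 and 199 against 235 FPKM and Fads2 at 58.0 and 100.1 against 114.3 FPKM. Early symptomatic replicate 3, with 8030 FPKM of Mbp, can be set against WT replicates 2 and 4 of end-stage age. Its Fads1 (76.3 FPKM) and Scd1 (19.7 FPKM) lay between the WT values, and its Scd2 (177 FPKM) and Fads2 (69.4 FPKM) lay above both. Its Sqle, Cyp51 and Msmo1, at 10.02, 39.8 and 57.8 FPKM, were below both. These are single libraries, and G93A end-stage replicate 4 and WT replicate 2 were among the 4 neutrophil-rich ones.

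With Mbp as a further term in the limma fit, 18 of 30 genes were lower at end stage than pre-symptomatic and none higher (7.92% and 5.6% of all genes tested), with a median of -0.92. Mbp did not overlap between those 2 groups, so the term extends the slope within groups beyond the range of either. The fit used the same slope for all groups. Taken apart, the within-group slope of the mean level on log2 Mbp was 0.61 in control and 0.25 in G93A libraries. Among the genes of the sterol steps, which include Sqle and Cyp51, the steepest shared slope was 0.44. In control libraries alone the steepest was 1.04. All values with the term rest on the shared slope, and changes under the slope of the controls were not computed. Sqle was then at -1.91 ± 0.38 (limma adjusted p = 0.00141), Cyp51 at -1.77 ± 0.31 (limma adjusted p = 0.000475) and Scd1 at -1.504 ± 0.29 (limma adjusted p = 0.00107). Early symptomatic libraries gave 8 lower and no higher genes (2.71% and 6.63% of all genes tested). Their Mbp, at 1315 to 10029 FPKM, did not overlap the pre-symptomatic range either. Onset gave none, with 0% of all genes called by limma. There 0 of the 30 genes, and 375 of all 11750 genes tested, were at an unadjusted p under 0.05.

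Against WT mice of end-stage age, where Mbp ranges overlapped (1317 to 8319 and 5295 to 18315 FPKM), the Mbp term gave 15 lower genes and none higher (10.7% and 4.45% of all genes tested), with a median of -0.61. Sqle was at -1.61 ± 0.33 (limma adjusted p = 0.00165), Idi1 at -1.41 ± 0.23 (limma adjusted p = 0.000177) and Cyp51 at -1.36 ± 0.27 (limma adjusted p = 0.00121). Msmo1 was at -1.20 ± 0.17 (limma adjusted p = 3.33e-05), close to its difference without the term. Fads1 and Hmgcs1 passed the test with the term, at -0.85 (limma adjusted p = 0.0131) and -0.78 (limma adjusted p = 0.0178), while Scd1 and Fads2 did not, at -0.69 (limma adjusted p = 0.0656) and -0.61 (limma adjusted p = 0.106). Against B6 mice the term left 22 genes lower and none higher (14.8% and 6.26% of all genes tested), with a median of -1.005. Mbp was 10881 to 18852 FPKM in these B6 libraries and did not overlap the G93A end-stage range, so the term again extends the slope beyond either group. Against both controls of onset age no gene of the 30 was called by limma (0.00851% of all genes tested lower against WT, and 0.0936% higher against B6). At an unadjusted p under 0.05 were 5 of the 30 against WT and 0 against B6. Over all 11750 genes tested these counts were 1082 and 917.

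Other genes of lipid handling, 17 of which were tested, gave 6 lower and 6 higher at end stage than pre-symptomatic, with a median of -0.07 against 0.03 over all genes. Of all genes tested, 31.1% were lower and 24.8% higher, so the counts are near the background. Ch25h, which makes 25-hydroxycholesterol, was at 4.99 ± 0.75 (limma adjusted p = 3.39e-05), the exporter Abcg1 at 3.00 ± 0.44 (limma adjusted p = 2.67e-05) and Soat1, which esterifies cholesterol for storage, at 2.40 ± 0.34 (limma adjusted p = 2.08e-05). The exporter Abca1 was at 1.68, Mylip, which degrades the lipoprotein receptor, at 1.22 and Mbtps2, a protease that releases active SREBP, at 0.90. Of the lower genes, Acss2, which makes acetyl-CoA from acetate, was at -3.02 ± 0.55 (limma adjusted p = 0.000221), Gpam, which starts glycerolipid synthesis, at -2.46, Me1, which supplies NADPH, at -2.28, the elongases Elovl6 and Elovl5 at -1.33 and -1.02, and the sterol receptor gene Nr1h3 at -0.72. Against WT mice of end-stage age, Abcg1 (2.12), Abca1 (1.99) and Soat1 (1.5) were higher and Acss2 (-1.94) lower. Acaca, the acetyl-CoA carboxylase, was at -0.07 against pre-symptomatic and did not pass the test.

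In sciatic nerve macrophages some of the genes were scarce and others were not: Acly ranged from 33.2 to 97.3 FPKM over the non-grafted MP libraries, Msmo1 from 32.8 to 98.7, Fdps from 14.5 to 52.4 and Ebp from 11.1 to 31.1 FPKM. The MP libraries held a strong neutrophil signal, with summed neutrophil markers of 73964 to 205641 FPKM against 366 to 1623 FPKM for macrophage markers. Hmgcs1 had 10.7, 42.7 and 13.3 FPKM pre-symptomatic and 13.8, 30.3, 18.6 and 5.77 FPKM at end stage, overlapping. Msmo1 was the more abundant of the 2, at 52.9, 67.8 and 62.0 and 64.3, 58.4, 72.2 and 49.8 FPKM. Scd2 was scarce, at 4.51, 15.7 and 3.75 FPKM pre-symptomatic and 2.34, 23.4, 2.66 and 2.49 FPKM at end stage. Up to 11 of the 31 genes were listed at 0 in a library.

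No member was called by limma at onset, early symptomatic or end stage against pre-symptomatic, or at end stage against the described-as-WT libraries, with 2, 2, 2 and 1 of 31 genes at an unadjusted p under 0.05. Over all 10260 genes tested, 0%, 0%, 0.00975% and 0% were called, and 474, 535, 671 and 662 were at an unadjusted p under 0.05. The medians were -0.35, -0.72, -0.34 and 0.09, against -0.08, -0.09, -0.12 and -0.02 over all genes. Mvk had the largest difference at end stage, -2.54 ± 1.01 (limma adjusted p = 0.677), with means of 1.07 against 10.4 FPKM pre-symptomatic. No slope on Mbp was called in MP (0.409% of all genes tested), with 3 genes at an unadjusted p under 0.05, where 1033 of all 10259 genes tested were. The r between the mean level and log2 Mbp was 0.359 over the 18 libraries and 0.123 without the 2 farthest.

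Between the 2 sources, cell type, tissue and, in the pre-symptomatic groups, pooling of mice cannot be told apart. At the pre-symptomatic stage 17 of 31 genes were lower and 1 higher in MP than in MG (31% and 23.6% of all genes tested). Median-ratio scaling moved the median of all genes from -0.17 to -0.57, and the median of the 31 genes relative to it was -0.93 before and -1.004 after. Fads2 was at -6.58 ± 0.93 (limma adjusted p = 1.75e-07), Scd2 at -6.21 ± 0.84 (limma adjusted p = 9.36e-08) and Scd1 at -5.49 ± 0.89 (limma adjusted p = 1.71e-06), and Ebp was higher at 0.89 ± 0.34 (limma adjusted p = 0.0227). Mbp was 8.39 to 823 FPKM in these MP libraries and 21094 to 24164 FPKM in the MG ones.

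At end stage the difference was smaller and mixed, with 6 genes lower and 5 higher in MP (26.3% and 13.1% of all genes tested) and a median of -0.33 against -0.37 over all genes. Scd2 was still lower, at -3.40 ± 0.78 (limma adjusted p = 0.000636), as were Fads1, Fads2, Dhcr7, Mvk and Scap. Mvd (1.19), Hsd17b7 (1.18), Fdps (1.12), Stard4 (0.85) and Msmo1 (0.69) were higher. The count of 11 was 7 without MG replicate 2 or 3, or without MP replicate 2 or 3.

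The end-stage change itself differed between the 2 sources for 8 of 31 genes, all with the change more positive in MP than in MG (9.51% of all genes tested went this way and 10.3% the other). They were Fads2 at 3.99 ± 1.26 (limma adjusted p = 0.0235), Scd1 at 3.86 ± 1.21 (limma adjusted p = 0.023), Hmgcs1 at 2.70 ± 0.77 (limma adjusted p = 0.0147), Mvd at 2.35 ± 0.69 (limma adjusted p = 0.0168), Idi1 at 2.26 ± 0.77 (limma adjusted p = 0.0348), Tm7sf2 at 1.93, Fdft1 at 1.88 and Msmo1 at 1.05. The median of all genes was -0.18, or 0.19 after median-ratio scaling, and that of the 31 genes relative to it was 1.21 and 1.23. The count was 3 without MG end-stage replicate 1 or without MP pre-symptomatic replicate 3.

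In the grafted mice, the question is whether donor marrow changed these genes. In MG no gene of the 30 tested was called by limma in any of the 4 comparisons (0% of all 11143 genes tested), with 9 at an unadjusted p under 0.05 for WT against G93A marrow at the early symptomatic stage, 0 at end stage, 2 for end stage against early symptomatic with G93A marrow and 12 with WT marrow. Over all genes tested these counts were 1229, 53, 95 and 1011. At the early symptomatic stage, the 3 libraries with G93A marrow had 43.1, 52.3 and 45.3 FPKM of Scd2 and the 3 with WT marrow 49.2, 142 and 513 FPKM. Fads2 had 6.13, 2.45 and 6.24 and 6.47, 42.6 and 225 FPKM, and Hmgcs1 13.2, 20.5 and 11.4 and 12.7, 35.7 and 83.5 FPKM. In each gene WT marrow replicate 3 was far above the other libraries, replicate 2 was next and replicate 1 was at the level of the G93A marrow group or near it. Mbp was 951, 5325 and 21258 FPKM in the same 3 WT marrow libraries, in the same order, and Ebp ran the other way, at 25.1, 13.8 and 6.45 FPKM.

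The difference for Scd1 was 2.92 ± 0.91 (unadjusted p = 0.00679, limma adjusted p = 0.407). At end stage the 2 marrow groups overlapped for the genes shown, with Scd2 at 51.8, 28.9 and 65.8 FPKM with G93A marrow and 62.0, 44.3 and 73.7 FPKM with WT marrow. The median over the 30 genes was 0.56 early and 0.07 at end stage, against -0.06 and 0.00 over all genes. Between the stages it was -0.16 with G93A marrow and -0.79 with WT marrow, against -0.10 and -0.12 over all genes, and under median-ratio scaling -0.01 and -0.66 against 0.04 and 0.01. Without WT marrow replicate 1 of the early symptomatic stage, 9 genes were called for the marrow comparison and 7 for the stage comparison in WT marrow.

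In the grafted MP libraries no gene of the 28 tested was called by limma (0% of all 10299 genes tested), with 1, 4 and 0 at an unadjusted p under 0.05 for WT against G93A marrow at the early and the end stage and for end stage against early with G93A marrow. Over all genes tested these counts were 245, 1588 and 435. Acly had the lowest p, with 90.4, 103.23 and 100.1 FPKM with G93A marrow and 30.8, 50.8 and 26.9 FPKM with WT marrow at end stage, without overlap, for a difference of -1.46 ± 0.31 (limma adjusted p = 0.151). The groups of 4 of the 28 genes did not overlap (23% of all genes tested). The medians were -0.02, -0.31 and -0.22, against -0.10, -0.15 and -0.04 over all genes, and the first became 0.07 under median-ratio scaling. In the WT marrow group of end stage, replicate 1 stood apart, with a mean log2 level over the 31 genes of 1.99 against 2.78 and 3.09 in replicates 2 and 3, and with 0.02, 61.4 and 43.9 FPKM of Msmo1 and 0, 54.9 and 42.2 FPKM of Sc5d in replicates 1 to 3. Without it the median for marrow at end stage was 0.39 in place of -0.31, and no gene was called by limma. Without WT marrow replicate 2 of end stage, 1 gene was called for the marrow comparison there.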

How the data were processed

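RNA from CD11b-selected cells was sequenced and deposited by the authors as 2 tables of FPKM, 1 for 51 non-grafted and 1 for 23 grafted libraries, which were used with the decimal commas of the deposited files read as points. Per the submitters' processing notes, the tools were DESeq2, FastQC, Picard, SAMtools and R 3.2.5 with the build mm10; the sources used here do not give the aligner or counter, nor whether the 2 tables were scaled together, and no comparison was made across them. DESeq2 was not run here. The number of reads behind each value is not given, so the precision is known only from the spread between libraries.

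The 31 genes were taken by exact symbol, and 361 features that list several symbols were kept under their joint name. Values were transformed as log2(FPKM + 1). For MG, for MP, for each grafted source and for MG and MP together, limma 3.58.1 (R 4.3.3) was fitted to all genes with a symbol and a mean of at least 1 FPKM (11750, 10260, 11143, 10299 and 11773 genes), with group means and a variance trend, and p-values were adjusted by Benjamini and Hochberg over all genes tested; a call is an adjusted p under 0.05. The slope on log2 Mbp came from a fit with Mbp as a term beside the groups. The fit was tested on simulated data: for MG at end stage against pre-symptomatic, over 11750 genes of which 200 were changed, 80% were recovered at a log2 change of 1 and 100% at 2, and 8.16% of calls were unchanged genes. The simulated spread of each gene was capped at the median over genes, values were drawn independently, and only genes of higher mean level were changed. These rates therefore do not cover genes with a larger spread or variation that genes share. Python 3.11.15 with pandas 2.3.3, SciPy 1.17.1 and matplotlib 3.10.9 made the summaries and figures.

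Groups come from the submitters' labels, and 0 columns were without a sample. Replicate numbers were shared by groups, and the deviations of same-numbered libraries had correlations from -0.673 to 0.610. Libraries were therefore not paired by number, and the fits treated them as independent. Only same-numbered libraries were compared in this way. G93A MG and MP groups of a stage have the same mean age, and whether some MG and MP libraries came from the same mice is not known. The members, roles, marker lists and related lipid genes were chosen with earlier results of these data known, and full statistics were given by rule to up to 6 called genes with the largest change in a comparison. Other genes given with statistics, among them Ebp, Msmo1 and genes that were not called (Fads2, Scd1, Fads1, Mvk and Acly in the comparisons where they appear), were singled out after their values were seen. Alternatives tried were another pseudocount (0.1), no filter, median-ratio scaling, library weights, a replicate block, terms for Mbp and S100a8, omitting libraries with S100a8 above 10000 FPKM, fitting only the groups compared, and leaving out each library in turn.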

Additional observations from a re-analysis of the deposited data

Results flagged for a closer look

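A library was flagged when its gap from the next value was a large part of its group's range. The rule flags about 1 in 20 groups of independent, normally spread values. That rate does not carry over to FPKM of genes that share libraries, so no excess over chance can be read here. In 24 of 198 groups of values examined, 1 library stood apart from the others of its group. For Mbp these were WT of onset age replicate 4, at 22414 FPKM where the others had 15860 to 16467, WT of end-stage age replicate 3, at 18315 against 5295 to 7443, MP end-stage replicate 2, at 2410 against 18.9 to 70.8, and MP described-as-WT replicate 1, at 768 against 56.9 to 75.3 FPKM. WT of end-stage age replicate 3 stood apart also for Idi1, at 46.5 against 12.1 to 15.9 FPKM, and Fdps, at 43.5 against 26.8 to 27.9 FPKM. MP end-stage replicate 2 stood apart also for Scd2, at 23.4 against 2.34 to 2.66 FPKM, Fads2, at 16.8 against 0 to 2.49 FPKM, and Srebf2, at 12.3 against 16.8 to 17.1 FPKM. MP described-as-WT replicate 1 stood apart also for Scd2, at 22.3 against 1.86 to 4.99 FPKM, Idi1, at 13.7 against 3.18 to 3.42 FPKM, Dhcr7, at 13.8 against 1.99 to 3.12 FPKM, and Fads2, at 2.44 FPKM where the others are listed at 0. The part of Mbp in these values was not tested.

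G93A end-stage replicate 4 was high for Fdps, at 25 against 10.4 to 12.47 FPKM, and Srebf2, at 19.3 against 9.36 to 10.1 FPKM. B6 of end-stage age replicate 4 was low for Srebf2, at 19.6 against 27.4 to 28.6 FPKM, and high for Ebp, at 23.0 against 10.7 to 12.4 FPKM, and replicate 3 of that group was low for Dhcr7, at 12.9 against 17.4 to 18.1 FPKM. Srebf2 was high in WT of onset age replicate 4, at 27.4 against 22.5 to 23.0 FPKM, and Fads2 low in replicate 2 of that group, at 170.4 against 196 to 199.8 FPKM. Msmo1 was high in B6 of onset age replicate 1, at 119.97 against 77.9 to 83.9 FPKM. Scd2 was low in pre-symptomatic MG replicate 4, at 391.6 against 619 to 659 FPKM. Idi1 was low in MP end-stage replicate 1, at 3.10 against 6.06 to 6.12 FPKM, and Fads2 was 3.77 FPKM in MP early symptomatic replicate 4 against 0 to 0.01 in the others.

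The end-stage change from the pre-symptomatic level differed between MP and MG, by a limma interaction test, for 8 genes: Fads2 by 3.99, Scd1 by 3.86, Hmgcs1 by 2.70, Mvd by 2.35, Idi1 by 2.26, Tm7sf2 by 1.93, Fdft1 by 1.88 and Msmo1 by 1.05 log2 units, each with the change more positive in MP than in MG.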

How the results depend on the processing

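The counts of genes called for end stage against pre-symptomatic and against B6 mice stayed within 1.5 times under every alternative tried, except 17 with terms for Mbp and S100a8 for the former. Over fits that left out 1 library each, the counts were 24 to 27 for end stage against pre-symptomatic, 13 to 22 early symptomatic, 0 to 19 at onset, 4 to 16 for end stage against WT and 22 to 27 against B6, and at onset 0 to 22 against WT and 3 to 23 against B6. They were 0 to 9 for the marrow comparison and 0 to 7 for the stages with WT marrow in grafted MG, 0 to 1 for the marrow comparison in grafted MP at end stage and for the MP slope (1 without pre-symptomatic replicate 1 or 3), 22 to 27 for the MG slope, 14 to 17, 7 to 10 and 3 to 10 for MP against MG pre-symptomatic, at end stage and in the change between them, and 0 elsewhere.

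The early symptomatic count was 8 with a term for Mbp and 10 with terms for Mbp and S100a8. For onset against pre-symptomatic it was 0 with either set of terms, with no filter, without the 4 neutrophil-rich libraries and with only the groups compared, and 26 with library weights. For onset against WT it was 0 with either set of terms, no filter, median-ratio scaling or only the groups compared, 1 without the neutrophil-rich libraries, 12 with a pseudocount of 0.1 and 24 with weights. For onset against B6 it was 0 with either set of terms or only the groups compared and 10 without the neutrophil-rich libraries. For end stage against WT it was 23 with weights, 19 without the neutrophil-rich libraries and 4 with only the groups compared. Weights also gave 8 and 25 calls for WT against B6 at onset and end-stage age, 20 for marrow in grafted MG and 11 for the stages with WT marrow; they ranged from 0.0643 to 11.5 in MG and 0.0969 to 354 in grafted MG.

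For MP against MG pre-symptomatic the count was 9 with a term for Mbp and 0 with both terms. At end stage it was 7 with no filter, and with Mbp the balance turned to 3 lower and 8 higher (11 in all), and with both terms to 1 and 7 (8 in all). For the change between stages it was 3 with a pseudocount of 0.1, 5 with Mbp and 1 with both terms, and the MP slope had 1 call on the mean of the myelin markers. With a replicate block the count was 0 at onset against pre-symptomatic, 0 against WT and 6 against B6. The block changed no other count by more than 1.5 times, and whether the shared numbers pair samples is not known.

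Signs turned for genes named at onset. Against pre-symptomatic, with a term for Mbp, Fads2 was at 0.14, Fads1 at 0.0035 and Hmgcs1 at 0.076, and with both terms Fads2 at 0.22, Scd1 at 0.0090, Scd2 at 0.042, Fads1 at 0.12, Hmgcs1 at 0.18 and Fasn at 0.016. Against B6, with Mbp, Fads2 was at 0.13, Scd1 at 0.11 and Hmgcs1 at 0.082, and with both terms Fads2 at 0.22, Scd1 at 0.16, Scd2 at 0.11 and Hmgcs1 at 0.20. For MP against MG at end stage Fads2 was at 0.38 with both terms. The cause of these changes was not tested. Of the other values for single genes outside the fits that left out 1 library, 370 kept their sign and side of the threshold and the rest lost the call. Slopes in WT and B6 libraries alone, and slopes without 1 library, were added after seeing the data. Depth is unknown, so what it limits cannot be stated.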
